A study of Brassica rapa with 8 samples.

Results

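Seedlings treated with IBA-Ala were compared directly with seedlings treated with IPA-Ala. These are the auxin conjugates with the longer side chains. The comparison holds the raw counts of 4 of the 8 libraries, 2 biological replicates for each conjugate, across 46250 genes and in detail across 42 auxin-related genes, of which 32 had enough counts to be tested. The 42 are the auxin genes with a printed identifier in the publication. The organism is *Brassica rapa* (Chinese cabbage, cultivar Cantonner Witkrop). The 1-day-old seedlings were kept on agar with 0.01 mM IBA-Ala or 0.01 mM IPA-Ala, under continuous light, and RNA was taken from whole seedlings. The other 4 libraries, 2 from seedlings on hormone-free agar (the control) and 2 from seedlings on 0.01 mM IAA-Ala, are given as reference levels only and, in one place, to choose a list of genes. The treatment lasted 24 h by the protocol and 3 h by the library titles, the same for all groups, and which of these holds is not settled here.

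In both conjugates, an indole auxin is joined to alanine by an amide bond. IPA-Ala carries indole-3-propionic acid and IBA-Ala carries indole-3-butyric acid, whose side chain is longer by a methylene group. They form 1 pair of compounds at a matched concentration and time. Auxin conjugates of this kind are regarded as storage forms, from which amidohydrolases release the free auxin. In *Arabidopsis*, auxin removes Aux/IAA repressors, which turns on the early response genes of the *GH3*, *Aux/IAA* and *SAUR* families. Many GH3 enzymes then bind auxin to amino acids again, UGT glucosyltransferases bind it to glucose, and YUC monooxygenases make new auxin. IBA itself is shortened to IAA in the peroxisome by steps that resemble the breakdown of fatty acids.

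Gene counts summed to 17323293 and 17275387 in the IPA-Ala libraries and to 18669504 and 18544936 in the IBA-Ala libraries. Replicates differed by more than counting error, with a chi-square per gene of 22.2 for IPA-Ala and 23.0 for IBA-Ala. Reads on no annotated gene took 16.9% and 17.4% of the uniquely placed reads in the IPA-Ala libraries and 18.4% and 17.4% in the IBA-Ala libraries, and the 10 most abundant genes took between 2.93% (IBA-Ala replicate 1) and 4.0% (IPA-Ala replicate 1) of the counts on genes. Levels are given as CPM, the counts relative to library depth after TMM scaling over all 8 libraries. They are not divided by gene length, so they compare libraries and not genes. Reads placed at several sites were left out of all counts, so genes with a closely similar copy have uncertain levels. The samples are whole seedlings, so that fewer cells of a type and less RNA per cell cannot be told apart. Since the identifiers are not paired with gene names in the files, marker genes of the tissue were not checked.

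How many genes separated the seedlings after IBA-Ala from those after IPA-Ala depended on the tool. Among 26940 genes tested by edgeR's quasi-likelihood test, 0 genes (0%) had a Benjamini-Hochberg adjusted p below 0.01 or below 0.05, and the smallest adjusted p was 0.205. There were 2146 genes, 7.97% of those tested, at an unadjusted p below 0.05, of which 957 (3.55%) were higher and 1189 (4.41%) were lower after IBA-Ala. The split was 481 higher and 932 lower without IPA-Ala replicate 1, and 1418 higher and 1492 lower without IBA-Ala replicate 2. Of the 2146 genes, 767 differed by 1 or more on the log2 scale. DESeq2, the tool of the study, gave 91 genes at an adjusted p below 0.01, which is 0.357% of the 25516 genes to which it gave an adjusted p, with 38 higher and 53 lower after IBA-Ala. All 91 had an unadjusted p below 0.05 and the same direction in edgeR, where their adjusted p lay between 0.205 and 0.497. Both tools read the same counts of the 4 libraries, so the shared direction is no separate support for these genes. None of the 91 is an auxin-related gene described here. A p that misses the threshold does not show that the conjugates acted alike. The 95% interval of the difference lay within a 2-fold change for 16018 genes (59.5%). For the other genes tested, a difference of 2-fold or more was within the interval.

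How small a difference could be seen depended on the level of the gene. Among 2115 genes below 1 CPM, the interval stayed within 2-fold for 0%, with a median half-width of 1.58 on the log2 scale. Between 10 and 30 CPM, it stayed within 2-fold for 85.0% of 7252 genes, with a median half-width of 0.51. The share with an unadjusted p below 0.05 was 6.38% below 1 CPM, 7.6% between 10 and 30 CPM and 12.7% among 1960 genes at 100 CPM or more. In that highest class, 82 genes were higher and 166 were lower after IBA-Ala.

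The libraries of the 2 conjugates were not farther apart than replicates in every pairing. Measured in log2 CPM over the 26940 genes, the root mean square distance was 0.56 between the IPA-Ala replicates and 0.57 between the IBA-Ala replicates. The 4 pairs across the conjugates ranged from 0.53 (both replicates 2) to 0.69 (both replicates 1). The share of genes more than 2-fold apart was 6.98% between the IPA-Ala replicates, 7.67% between the IBA-Ala replicates, 6.79% between both replicates 2 and 11.6% between both replicates 1. Thus IBA-Ala replicate 2 was nearer to IPA-Ala replicate 2 than to its own replicate.

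**Figure D1:**
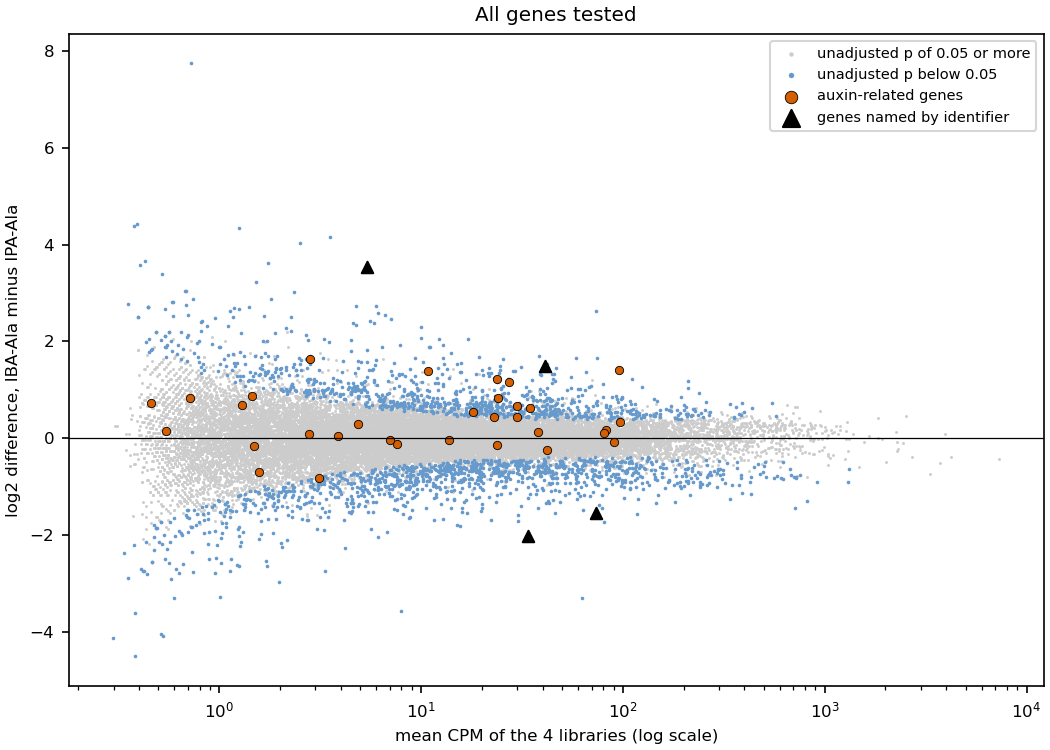
Each point is 1 of the 26940 genes tested, with its mean CPM in the 4 libraries on a log axis and its fitted log2 difference, IBA-Ala minus IPA-Ala, on the vertical axis. Blue points are the 2146 genes with an unadjusted p below 0.05, orange circles are the 32 auxin-related genes and black triangles the 4 genes named by identifier, and the scatter widens toward low levels on both sides of 0.

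The genes with the smallest unadjusted p outside the auxin-related set, 2 in each direction and with libraries that do not overlap, are known only by identifier. BraA10g029770.3C had 0.699 and 1.01 CPM in the IPA-Ala libraries and 11.6 and 8.47 CPM in the IBA-Ala libraries, beside 1.20 and 0.378 CPM in the control. Its log2 difference was 3.54 ± 0.38 (SE), so that the IPA-Ala libraries stayed in the range of the control and the IBA-Ala libraries did not. The IAA-Ala libraries of this gene, with 4.87 and 2.17 CPM, were also above the control. BraA04g022070.3C had 23.3 and 20.0 CPM after IPA-Ala and 63.2 and 58.4 CPM after IBA-Ala, a log2 difference of 1.49 ± 0.18 (SE). It had 21.4 and 11.0 CPM in the control and 24.7 and 49.1 CPM after IAA-Ala. In the opposite direction, BraA10g021050.3C had 53.4 and 55.9 CPM after IPA-Ala and 14.9 and 11.9 CPM after IBA-Ala, a log2 difference of −2.02 ± 0.20 (SE). Here the control libraries, with 32.7 and 40.8 CPM, lay between the conjugates. BraA08g032440.3C had 112 and 107 CPM after IPA-Ala and 34.6 and 39.8 CPM after IBA-Ala, a log2 difference of −1.55 ± 0.17 (SE), with 74.6 and 131 CPM in the control. After IAA-Ala, BraA10g021050.3C had 25.3 and 32.1 CPM and BraA08g032440.3C 127 and 134 CPM. The adjusted p of these 4 genes was between 0.205 and 0.234 in edgeR's quasi-likelihood test and between 6.29e-11 and 3.49e-06 in DESeq2. They were chosen for their p, and their values are a description.

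Among the 32 auxin-related genes tested, 23 had a higher and 9 a lower fitted level after IBA-Ala, with a median log2 difference of 0.31 beside 0.0029 over all genes tested. Without IBA-Ala replicate 2, 19 were higher and 14 lower of the 33 that could then be tested. At an unadjusted p below 0.05 there were 7 of the 32, all 7 higher after IBA-Ala, where 3.55% of all genes tested were higher at this p. They were *GH3.6*, *GH3.3*, *IAA2*, *IAA29*, *EIR1*, *UGT74E2* and *UGT1*. None passed the adjusted threshold, and the lowest adjusted p among the 32 was 0.451 by edgeR's quasi-likelihood test. Both IBA-Ala libraries lay above both IPA-Ala libraries for 12 genes and below them for 2, and the libraries overlapped for 18, whereas over all genes tested 18.8% lay above and 19.1% below. Of the 7 genes, 5 are among the 12 that the study picked as differentially expressed against the control in this series. Their direction is therefore not independent evidence. According to the study, *EIR1* and *UGT74E2* were differential only after IBA-Ala, so *EIR1* is in the set only through the group where it is high. The remaining 20 genes tested, shown for their place in auxin metabolism, held 2 of the 7 and had a median log2 difference of 0.16. Only *GH3.6* and *UGT74E2* kept an unadjusted p below 0.05 without IPA-Ala replicate 1, the setting with the fewest such genes. *EIR1* lost it without either IPA-Ala replicate and without IBA-Ala replicate 1, and *IAA29*, *GH3.3* and *UGT1* lost it without IBA-Ala replicate 2 as well as without IPA-Ala replicate 1. Among the left-out libraries, *IAA2* lost it only without IPA-Ala replicate 1. With DESeq2, *GH3.3* and *EIR1* did not reach an unadjusted p below 0.05, and *EIR1* did not reach it with the replicate number as a block. In the edgeR fit of all 8 libraries *UGT1* did not reach it, and with the block added to that fit neither *UGT1* nor *EIR1* did.

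**Figure D2:**
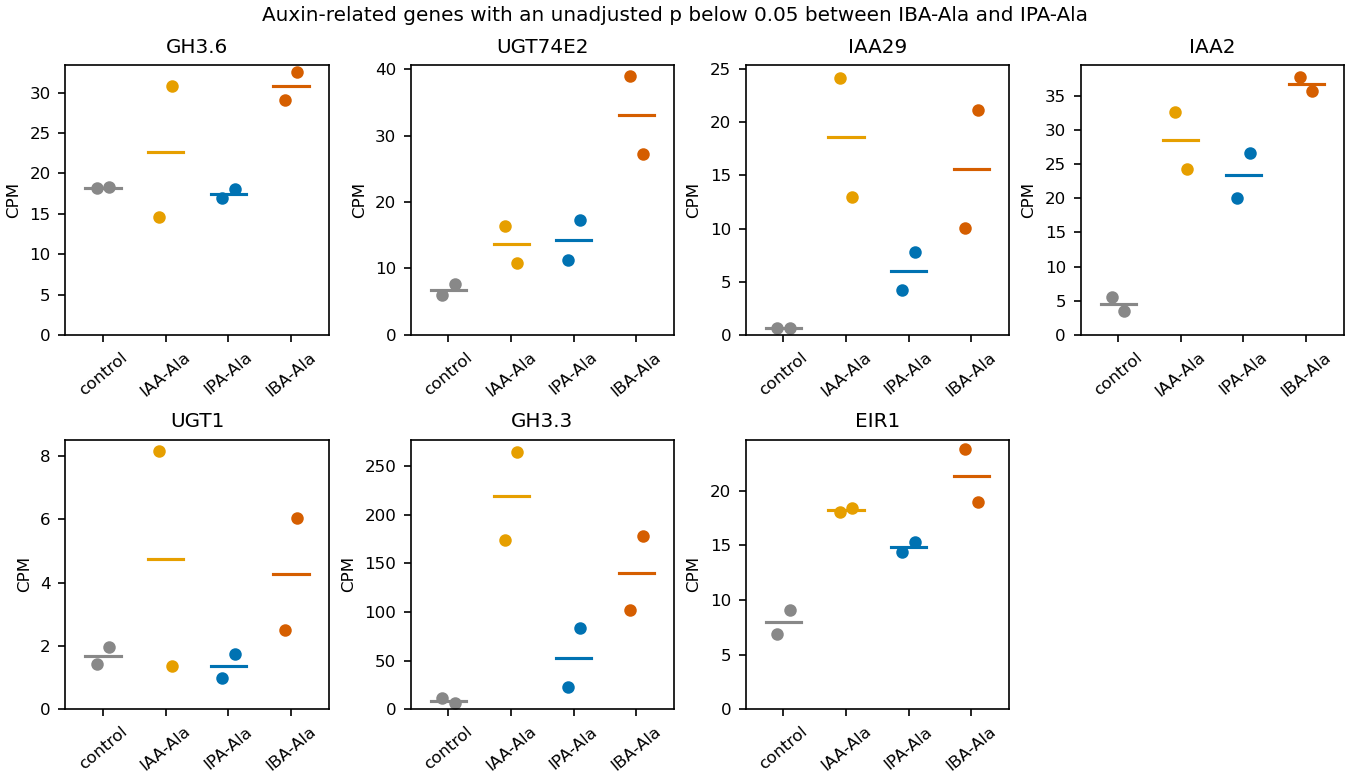
CPM in each of the 8 libraries for the 7 auxin-related genes that passed an unadjusted p of 0.05 in this comparison, where dots are libraries and bars the mean of the 2 replicates. Both IBA-Ala libraries lie above both IPA-Ala libraries in every panel, by a wide margin for *GH3.6* (29.1 and 32.5 against 16.9 and 18.0 CPM) and a narrow one for *GH3.3* (102 and 178 against 22.3 and 83.0 CPM).

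The *GH3* enzymes that bind auxin to amino acids come first, since they answer early to auxin. *GH3.6* (BraA02g013860.3C) had 16.9 and 18.0 CPM in the IPA-Ala libraries and 29.1 and 32.5 CPM in the IBA-Ala libraries. Replicates lay close together and the groups were apart, with a log2 difference of 0.82 ± 0.18 (SE) and a 95% interval of 0.39 to 1.25 (adjusted p = 0.451, edgeR). The control libraries had 18.2 and 18.3 CPM and the IAA-Ala libraries 14.6 and 30.8 CPM, so only the IBA-Ala libraries lay above the control in both replicates. *GH3.3* (BraA09g054360.3C) had 22.3 and 83.0 CPM after IPA-Ala and 102 and 178 CPM after IBA-Ala, beside 11.2 and 6.43 CPM in the control. All 4 libraries were above the control, and the interval of the log2 difference of 1.41 ran from 0.17 to 2.65. The fitted difference of *GH3.3* was 0.75 without IPA-Ala replicate 1 and 2.65 without IPA-Ala replicate 2. *YDK1* (BraA01g001510.3C), which codes for GH3.2, had 4.60 and 29.1 CPM after IPA-Ala and 25.9 and 49.2 CPM after IBA-Ala, with 0.490 and 1.07 CPM in the control. IPA-Ala replicate 2 lay above IBA-Ala replicate 1, and the interval of the log2 difference of 1.16 reached from −0.40 to 2.71. The fitted difference of *YDK1* was 3.03 without IPA-Ala replicate 2 and 0.37 without IPA-Ala replicate 1. It was 1.54 without IBA-Ala replicate 1 and 0.63 without IBA-Ala replicate 2, so its size depended on single libraries of both groups. After IAA-Ala, *GH3.3* had 174 and 264 CPM and *YDK1* 135 and 105 CPM, with means above those of both longer conjugates.

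The other *GH3* genes grouped with them were low. *GH3.1* (BraA09g010220.3C) had 0.815 and 1.18 CPM after IPA-Ala and 1.98 and 1.22 CPM after IBA-Ala, and *GH3.9* (BraA05g000230.3C) had 1.28 and 0.784 against 2.19 and 1.59 CPM. Both sets of libraries just failed to overlap, while the intervals, −0.49 to 1.86 and −0.24 to 2.0 on the log2 scale, included 0. *GH3.17* (BraA07g011840.3C), whose *Arabidopsis* enzyme prefers glutamate, had 3.49 and 4.14 against 4.43 and 3.44 CPM, a log2 difference of 0.05 with an interval of −0.69 to 0.78, and thus within 2-fold.

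Of the *GH3* genes with other or unassigned roles, 3 were tested. *GH3.15* (BraA03g005710.3C), whose *Arabidopsis* enzyme takes IBA as a substrate, had 92.1 and 63.8 CPM after IPA-Ala and 68.4 and 100 CPM after IBA-Ala. The groups overlapped, and the interval of the log2 difference of 0.12 was −0.46 to 0.69. *GH3.11* (BraA05g001430.3C), the relative of the jasmonate-conjugating enzyme JAR1, had 31.7 and 41.6 against 45.0 and 34.2 CPM, with an interval of −0.39 to 0.63. *GH3.18* (BraA05g017470.3C) had 1.34 and 1.79 against 0.763 and 2.06 CPM, and its interval of −1.44 to 1.13 left room for more than 2-fold in either direction. *GH3.8* (BraA02g015820.3C) and a *GH3* family gene (BraA08g026630.3C) had too few counts to be tested, with at most 0.0543 and 0.448 CPM in any of the 8 libraries. *GH3.12* (BraA02g004780.3C) had 0 counts in all 8 libraries, which allows up to 3 counts or between 0.153 and 0.189 CPM per library.

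Both *Aux/IAA* genes, which code for the repressors of auxin response, had higher levels after IBA-Ala. *IAA2* (BraA03g040660.3C) had 20.1 and 26.6 CPM after IPA-Ala and 37.8 and 35.7 CPM after IBA-Ala, with 5.55 and 3.53 CPM in the control. The log2 difference was 0.66 ± 0.20 (SE), with an interval of 0.19 to 1.13 (adjusted p = 0.511, edgeR). *IAA29* (BraA03g057220.3C) had 4.19 and 7.78 CPM after IPA-Ala and 10.1 and 21.2 CPM after IBA-Ala, with 0.653 and 0.630 CPM in the control. The lower IBA-Ala library stood close to the higher IPA-Ala library, and the interval of the log2 difference of 1.38 was 0.41 to 2.35. The difference of *IAA29* was 0.75 without IBA-Ala replicate 2 and at most 1.90, without IPA-Ala replicate 2. For both genes all 4 libraries were above the control. After IAA-Ala, *IAA2* had 32.7 and 24.3 CPM and *IAA29* 24.2 and 13.0 CPM. The IAA-Ala mean was above the IBA-Ala mean for *IAA29* and below it for *IAA2*.

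The *SAUR*-like genes, of the family of small auxin-induced transcripts, showed no common direction. BraA01g003500.3C had 15.5 and 23.8 CPM after IPA-Ala and 38.0 and 14.7 CPM after IBA-Ala, so that the IBA-Ala replicates enclosed the IPA-Ala replicates. BraA01g003520.3C showed the same arrangement at a lower level, with 2.56 and 2.86 against 4.68 and 1.01 CPM, and 0.272 and 0.00 CPM in the control. Its log2 difference was 0.08 and its interval −1.34 to 1.51. BraA06g015440.3C was higher in both IBA-Ala libraries, with 38.4 and 29.8 against 23.3 and 27.6 CPM, and an interval of −0.05 to 0.91. BraA07g029140.3C was lower in both, with 43.0 and 33.6 against 46.5 and 44.6 CPM, and an interval of −0.69 to 0.20. *EIR1* (BraA03g012590.3C), which codes for the efflux carrier PIN2 of root cells, had 14.4 and 15.3 CPM after IPA-Ala and 23.9 and 18.9 CPM after IBA-Ala. The log2 difference of *EIR1* was 0.53 ± 0.21 (SE), with an interval of 0.05 to 1.02 (adjusted p = 0.590, edgeR). It was 0.35 without IBA-Ala replicate 1. *EIR1* was picked by the study as differential only after IBA-Ala, so its higher level here was partly fixed by that choice.

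The *YUC* genes, which code for the enzymes of the last step of IAA synthesis, were low or not detected. *YUC3* (BraA10g003150.3C) had 8.56 and 5.82 CPM after IPA-Ala and 8.34 and 5.50 CPM after IBA-Ala. These pairs of values nearly coincide, with a log2 difference of −0.05 and an interval of −0.79 to 0.70, and all 4 were above the 1.79 and 1.20 CPM of the control. *YUC4*, *YUC5* and *YUC6* (BraA02g003880.3C, BraA06g043510.3C and BraA06g032880.3C) were tested at levels between 0.112 and 1.27 CPM in the 4 libraries. All 3 overlapped between the groups, and their intervals left room for a difference well over 2-fold (for *YUC5*, −1.43 to 2.89). *YUC7* (BraA05g011570.3C) was not tested, with 0.990 and 0.448 CPM after IPA-Ala and 0.102 and 0.423 CPM after IBA-Ala. *YUC8*, *YUC9* and the gene named *YUC* (BraA08g018860.3C, BraA09g065020.3C and BraA01g005540.3C) had at most 0.407 CPM in the 4 libraries and were not tested. *YUC10* and *YUC11* (BraA06g004210.3C and BraA06g016900.3C) had 0 counts in all 8 libraries.

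Genes of the route from indole glucosinolates and nitriles to IAA also gave wide intervals. The C-S lyase gene (BraA03g054450.3C), of a step in glucosinolate synthesis, had 5.82 and 2.18 CPM after IPA-Ala and 2.75 and 1.75 CPM after IBA-Ala. The log2 difference of −0.82 had an interval of −2.01 to 0.37, and all 4 libraries were below the 7.83 and 8.38 CPM of the control. *UGT74B1* (BraA09g039260.3C), whose enzyme adds glucose in the same pathway, had 28.5 and 26.0 against 26.6 and 56.9 CPM, and its log2 difference was 0.62 with all 4 libraries and −0.03 without IBA-Ala replicate 2. Among the nitrilases, which turn nitriles into acids, *NIT2* (BraA03g012980.3C) was lower in both IBA-Ala libraries, with 0.814 and 1.59 against 2.04 and 1.85 CPM, and an interval of −1.79 to 0.41. *NIT4* (BraA02g009700.3C) overlapped, with 3.9 and 4.93 CPM after IPA-Ala and 4.22 and 6.51 CPM after IBA-Ala.

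Of the genes that bind auxin to glucose or oxidise it, *UGT74E2* had the lowest unadjusted p (edgeR). The study picked it as differential only after IBA-Ala, so its direction here is not independent evidence. *UGT74E2* (BraA08g034260.3C), whose *Arabidopsis* enzyme prefers IBA, had 11.2 and 17.3 CPM after IPA-Ala and 38.9 and 27.2 CPM after IBA-Ala. The control had 5.98 and 7.69 CPM and the IAA-Ala libraries 16.4 and 10.9 CPM, so that the IPA-Ala and IAA-Ala libraries overlapped and both IBA-Ala libraries lay above the other 6. The log2 difference of *UGT74E2* was 1.22 ± 0.28 (SE), with an interval of 0.58 to 1.85 (adjusted p = 0.451, edgeR). With DESeq2, its adjusted p was 0.0212, the only auxin-related gene below 0.05 there, where 170 genes (0.666%) were below it. *UGT1* (BraA10g004380.3C), another glucosyltransferase gene, had 0.990 and 1.74 CPM after IPA-Ala and 2.49 and 6.03 CPM after IBA-Ala, with an interval of 0.39 to 2.88 around a log2 difference of 1.63. This difference was 0.87 without IBA-Ala replicate 2 and 2.14 without IBA-Ala replicate 1. The IAA-Ala replicates of *UGT1* were farther apart still, at 8.17 and 1.36 CPM.

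*UGT74D1* and *DAO1* showed little difference. *UGT74D1* (BraA04g022840.3C), whose enzyme acts on oxidised IAA in *Arabidopsis*, had 96.5 and 88.4 CPM after IPA-Ala and 79.7 and 95.1 CPM after IBA-Ala, with an interval of −0.48 to 0.33. *DAO1* (BraA08g030300.3C), which codes for the dioxygenase that oxidises IAA, had 13.3 and 14.8 against 9.92 and 17.3 CPM, with an interval of −0.71 to 0.61. Both intervals lay within 2-fold. *UGT84B1* (BraA09g054310.3C) had 0 counts in all 8 libraries.

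The 4 genes grouped under IBA response and conjugate hydrolysis, *IBR1*, *IBR3*, *IBR5* and *ILL2*, all had intervals within 2-fold. *ILL2* is the only amidohydrolase gene in the set, so other genes that split conjugates are not covered. *IBR1* (BraA09g026060.3C), which takes part in the peroxisomal shortening of IBA, had 71.6 and 101 CPM after IPA-Ala and 108 CPM in both IBA-Ala libraries. *IBR3* (BraA05g038700.3C), of the same pathway, had 80.5 and 76.0 against 83.9 and 91.3 CPM. For both genes the IBA-Ala libraries were the higher ones, while the intervals, −0.14 to 0.80 and −0.21 to 0.55 on the log2 scale, included 0. *IBR5* (BraA07g007390.3C), a phosphatase gene named for the IBA response of its *Arabidopsis* mutant, had 22.4 and 27.4 against 22.3 and 23.0 CPM, with an interval of −0.58 to 0.31. *ILL2* (BraA03g012870.3C), of the amidohydrolases that release auxin from conjugates, had 8.85 and 7.0 against 7.33 and 7.15 CPM, with an interval of −0.71 to 0.46. In all, 12 of the 32 genes had an interval within 2-fold, and 20 had one that reached 2-fold or more. Over all genes tested, 59.5% had one within 2-fold, a share that depended on level and was 0% below 1 CPM.

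**Figure D3:**
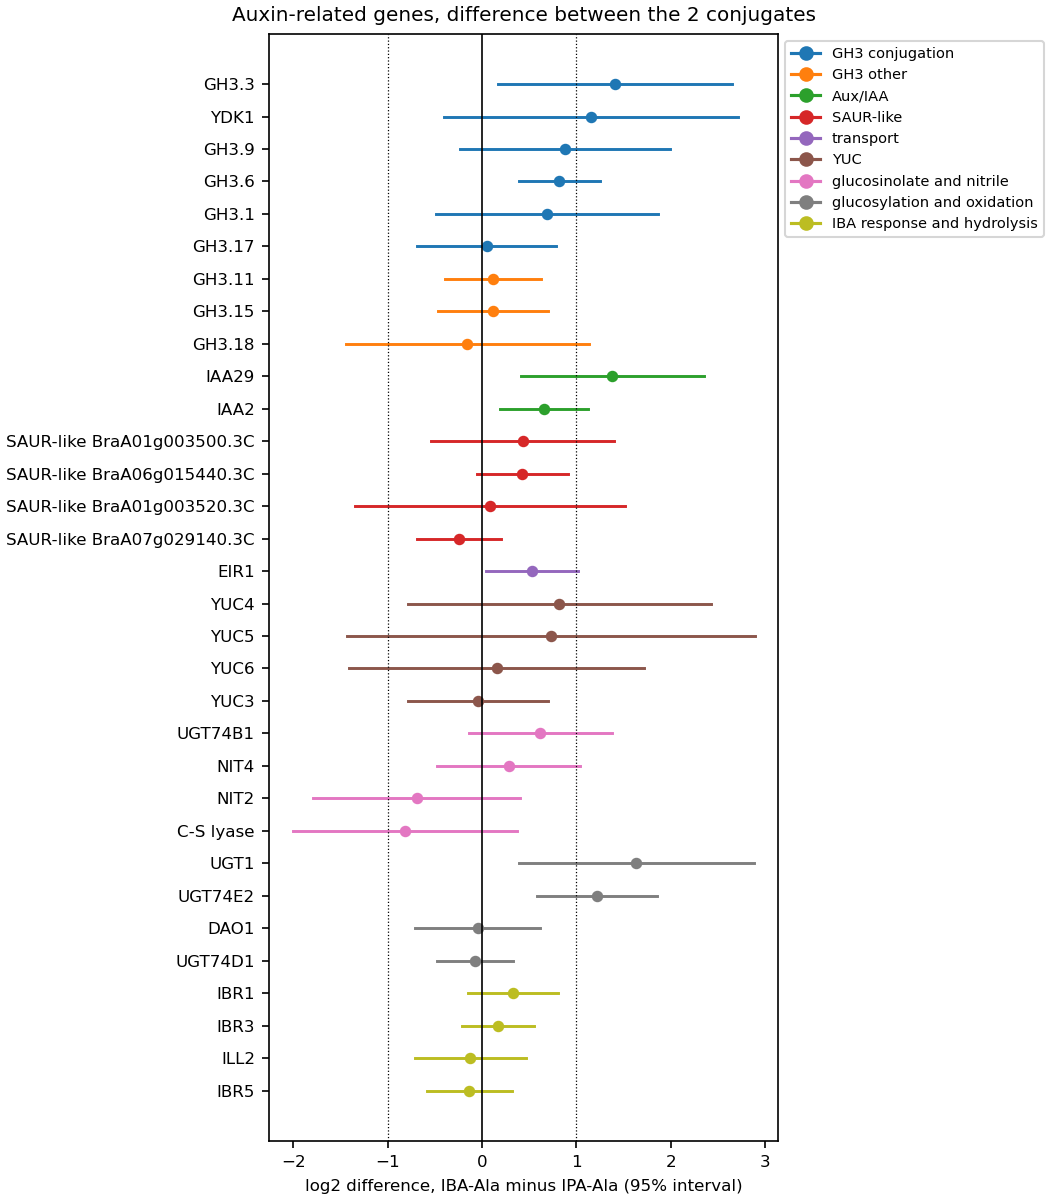
Fitted log2 difference, IBA-Ala minus IPA-Ala (dots), with its 95% interval (lines) for the 32 auxin-related genes tested, coloured by role, where the solid line marks 0 and the dotted lines a 2-fold change. The 7 intervals that exclude 0 all lie to the right of it. Of these 7 genes, 5 were picked by the study as differential against the control, *EIR1* and *UGT74E2* only after IBA-Ala. The intervals of the 4 genes of IBA response and hydrolysis lie within the dotted lines.

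A wider set of responsive genes was taken from libraries that do not enter this comparison. Genes raised after IAA-Ala against the control at an adjusted p below 0.05 (edgeR) numbered 156, which is 0.583% of 26769 genes, and *YDK1*, *GH3.3*, *IAA2* and *IAA29* are among them. Between the longer conjugates, 116 of the 156 (74.4%) had a higher fitted level after IBA-Ala, beside 50.4% of all genes tested, and the median log2 difference was 0.33. At an unadjusted p below 0.05, 36 (23.1%) were higher and 3 (1.92%) lower. This pattern rested on 1 library. Without IBA-Ala replicate 1, 72 of the 156 were higher and 84 lower, and the median was −0.05. Without IBA-Ala replicate 2, 142 were higher and the median was 0.63.

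The same is seen library by library. The median level of these 156 genes above the mean of the controls was 2.24 and 2.15 on the log2 CPM scale in the IPA-Ala libraries, 2.79 in IBA-Ala replicate 1 and 2.17 in IBA-Ala replicate 2. Thus IBA-Ala replicate 2 lay between the IPA-Ala libraries and IBA-Ala replicate 1 above them. The IAA-Ala libraries, which chose the list, had 2.61 and 1.90. Of the 156 genes, 155 or more were above both controls in each of the 4 libraries. The same 2 control libraries helped to choose the list, so this count was partly fixed by that choice. No share over all genes was counted beside it. The 4 medians share these controls too. In the group lowered after IAA-Ala, 23 genes (0.0859%), 21 could be tested, and 15 of them were higher after IBA-Ala, with a median log2 difference of 0.58. The median was −0.25 over the 78 genes tested of a list of lowered genes chosen by DESeq2, so its sign depended on how the list was chosen.

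**Figure D4:**
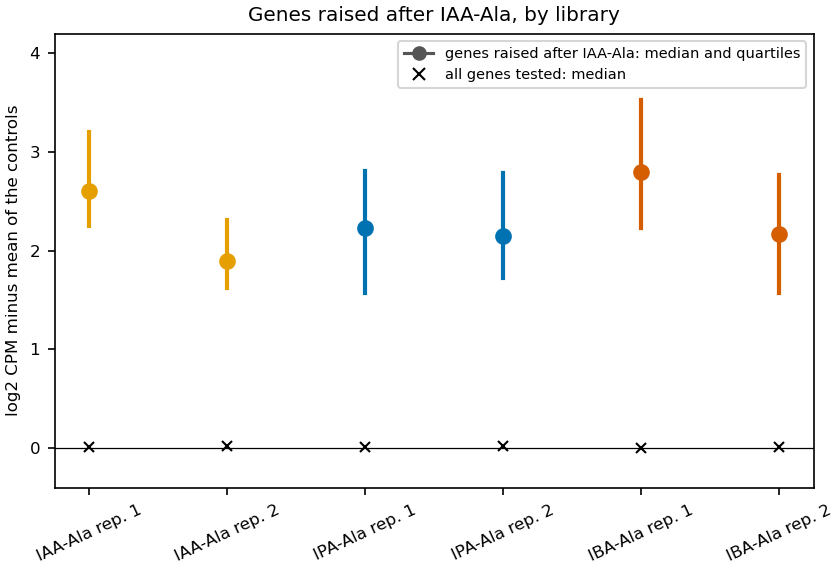
Median (dots) and quartiles (lines) of log2 CPM minus the mean of the 2 control libraries for the 156 genes raised after IAA-Ala, in each treated library, with the median of all genes tested as crosses. IBA-Ala replicate 1 has a median of 2.79, whereas IBA-Ala replicate 2 (2.17) lies with the IPA-Ala libraries (2.24 and 2.15).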

How the data were processed

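Raw counts per gene, whole numbers deposited for each library, were analysed. To make them, the authors removed 9 bases from the start of each read, aligned the rest to the genome of cultivar Chiifu with STAR 2.7.1a, and assigned reads to genes on the reverse strand with HTSeq 1.99.2. Tables named as normalized hold the same counts and were not used. Lines that name no gene were dropped. They include reads on no gene, 15.95% to 19.35% of the uniquely placed reads over the 8 libraries.

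Groups and replicates follow the sample labels. The 2 IBA-Ala and 2 IPA-Ala libraries were fitted with edgeR 4.0.16 (R 4.3.3), with filterByExpr (minimum count 10, minimum total 15), TMM scaling and the quasi-likelihood test, adjusted by Benjamini-Hochberg over all 26940 genes tested, with a threshold of 0.01. Log2 differences used a prior count of 0.125. Standard errors are the absolute unshrunk difference over the square root of F, and 95% intervals use the t distribution with the degrees of freedom of the test. log2 CPM used a prior count of 2. Levels of 0 carry an upper limit of 3 counts, for counting error only. The test was also run on simulated counts of 26480 genes, of which 200 were changed by more than most differences described here. At an adjusted p below 0.05 (edgeR), 191 of the 200 and 31 unchanged genes were called. False calls were thus a larger share of all calls than the 0.05 that the threshold aims at. The changed genes were not taken from the lowest levels. The 191 therefore do not show how often smaller differences, or differences in low genes, would be found. With 2 libraries per group, the spread between replicates has few degrees of freedom of its own, and the fit borrows it across genes.

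The 42 auxin-related genes are those that the study shows with an identifier in its expression figures of auxin genes, and the identifiers of 30 of them were read from the labels printed in a figure. The genes and lists were chosen with earlier results of these data known. In addition, the 2 higher and 2 lower genes with the smallest unadjusted p among those whose libraries do not overlap are named. 0 identifiers matched the reference table (assembly CAAS_Brap_v3.01), so positions, other names and sequences are not given. Alternatives were DESeq2 1.42.0, RLE scaling, other filters on low counts, a fit of all 8 libraries, a replicate block, the edgeR 3 form of the test, thinned counts, other thresholds and leaving out each library. Figures were drawn with Python 3.11.15, pandas 2.3.3 and matplotlib 3.10.9.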

Additional observations from a re-analysis of the deposited data

Results flagged for a closer look

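*GH3.6* (BraA02g013860.3C) was singled out because its libraries lay on opposite sides of the control. Both IBA-Ala libraries (29.1 and 32.5 CPM) were above both control libraries (18.2 and 18.3 CPM) and both IPA-Ala libraries (16.9 and 18.0 CPM) were below them. Against the control, the fitted log2 difference was −0.062 for IPA-Ala (adjusted p = 0.988, edgeR) and 0.77 for IBA-Ala (adjusted p = 0.185, edgeR). The IPA-Ala libraries thus stood close to the control level. The log2 difference between the conjugates was 0.82, and the difference between the responses to the control was not tested. Of the 32 auxin-related genes tested, 1 showed this arrangement, and of all genes tested 0.653% did, with 0.794% in the opposite arrangement. Samples far from their group were not sought, since each group holds 2 libraries.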

How the results depend on the processing

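The number of genes with an adjusted p below 0.01 was 0 under the edgeR alternatives and 91 with DESeq2. It was also 0 with each library left out, although 107 genes then had an adjusted p below 0.05 without IBA-Ala replicate 2. The number at an unadjusted p below 0.05 ranged from 1413 (without IPA-Ala replicate 1) to 2910 (without IBA-Ala replicate 2) with a library left out. The replicate number as a block gave 1731 such genes. Between the deviations of same-numbered libraries, r was −0.09 over all genes tested. A correlation over genes cannot settle whether these libraries were prepared in pairs. The block left 0 genes at 0.01 and 1 at 0.05, and reversed SAUR-like BraA01g003520.3C to −0.16 (−0.10 with all 8 libraries). Of the auxin-related genes, between 2 (without IPA-Ala replicate 1) and 9 (without IPA-Ala replicate 2) had an unadjusted p below 0.05, with 5 by DESeq2 (without *GH3.3* and *EIR1*). *GH3.6* and *UGT74E2* were among them under every setting listed.

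Leaving out a library turned the direction of 16 auxin-related genes, none of which had an unadjusted p below 0.05 with all 4 libraries. The ranges of the log2 difference were −0.15 to 0.22 for *GH3.17*, −0.10 to 0.33 for *GH3.11*, −0.18 to 0.40 for *GH3.15* and −1.03 to 0.40 for *GH3.18*. They were −0.42 to 0.96 and −1.42 to 0.79 for the SAUR-like genes BraA01g003500.3C and BraA01g003520.3C, −0.38 to 0.25 for *YUC3*, −0.16 to 2.29 for *YUC5* and −0.16 to 0.42 for *YUC6*. They were −1.36 to 0.048 for the C-S lyase gene, −0.030 to 1.06 for *UGT74B1*, −0.058 to 0.56 for *NIT4*, −0.21 to 0.042 for *UGT74D1*, −0.50 to 0.30 for *DAO1*, −0.27 to 0.021 for *IBR5* and −0.29 to 0.051 for *ILL2*. The median over genes raised after IAA-Ala ranged from −0.055 (without IBA-Ala replicate 1) to 0.63 (without IBA-Ala replicate 2). With the list at an adjusted p below 0.01 (edgeR) it was 0.66, over 11 genes that include *YDK1*, *GH3.3* and *IAA29*. With the raised list chosen by DESeq2 it was 0.285, over 293 genes. The median over lowered genes ranged from 0.29 to 0.75 with a library left out and was −0.25 with the DESeq2 list. Fits with 1 library in a group assume that it varies like the other group. The causes were not tested.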

Other observations

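The 91 genes called by DESeq2 between the conjugates were set beside the control, whose 2 libraries both conjugates share, as a description without a test. Both IBA-Ala libraries lay outside the range of the control libraries on the same side for 82 of these genes and both IPA-Ala libraries for 46. Over all 26940 genes tested, these counts were 12817 and 9908. The median absolute difference from the mean of the controls on the log2 CPM scale was 1.56 for IBA-Ala and 0.45 for IPA-Ala among the 91 genes, beside 0.35 and 0.27 over all genes tested. Among the 38 genes higher after IBA-Ala the medians were 2.19 and 0.92, and among the 53 lower genes 1.18 and 0.33. These genes were chosen for their difference between the conjugates.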
